A study of Homo sapiens with 6 samples.

Results

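The genes described are 50 genes of the G2 phase and of mitosis: the kinases and cyclins that start cell division, the spindle checkpoint, the kinetochore, the spindle motors, the cytokinesis machinery and the proteins that fold chromosomes. They were taken by gene name from a deposited table of 58302 rows, and all 50 names were found once. Each was above the level needed for testing, a mean of 0.5 FPKM over all libraries, so the 50 stand among 15620 tested genes. FPKM is a fragment count divided by transcript length and by library size.

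The libraries came from total RNA of MHCC97H cells, a human hepatocellular carcinoma line, grown in DMEM with serum. In the DDX17_KO group the gene DDX17, which encodes a DEAD-box RNA helicase, had been targeted with CRISPR/Cas9. The control group was a non-target control line made with the same system. Each group held 3 libraries, numbered 1 to 3, and the labels do not say whether the knockout line is 1 clone or whether the 3 libraries are separate cultures. The p-values therefore measure the spread between these libraries, which may be technical. The series' design text names proliferation among the abilities studied, and the comparison shows how the transcripts of dividing cells differ between the lines.

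Mitosis is driven by the kinase CDK1 bound to cyclins A and B, and is left when the anaphase-promoting complex, switched on by CDC20, marks cyclin B and securin for destruction. The checkpoint kinases hold CDC20 back until each kinetochore is attached to the spindle. Most of these genes are silent in G1 and are transcribed late in the cycle, under the control of the DREAM and MuvB complexes, B-MYB and FOXM1, which act through a short promoter element called the cell cycle genes homology region, or CHR, often beside CCAAT boxes bound by NF-Y. In bulk RNA, a larger share of cells in G2 and mitosis and more RNA per dividing cell cannot be told apart.

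The promoters of 5 members are shown, 2 with higher means in DDX17_KO, 2 with lower means and 1 near the control level, so that their elements can be compared. RefSeq (GRCh38.p14) gave 55 promoters for 43 of the 50 genes, each from 250 bases before to 50 after the start. A CHR, searched on both strands as TTTGAA and, as an equal form, TTCGAA, was found in 38 of the 55, or 69.1%, against 16.4% of all 35116 promoters in the table. A CCAAT box, searched as CCAAT on both strands, was in 39, or 70.9%, against 34.6%. Both were in 30, or 54.5%, against 6.38%, and an E2F-like site was in 13, or 23.6%, against 11% of all. The letters searched for it on both strands were TTCGCGC, with TTGGCGC and also TTCCCGC taken as equal. Matches of different motifs may share bases, and the start that RefSeq gives can differ from the gene start in the deposited table. The 120 bases before the start are given here 5′ to 3′ on the gene's strand, with CHR and CCAAT matches of either strand in capitals. MKI67 (chr10:128126424-128126543, minus strand) and KIF11 (chr10:92593010-92593129, plus strand) had higher mean levels in DDX17_KO. ESPL1 (chr12:53268179-53268298, plus strand) and INCENP (chr11:62123891-62124010, plus strand) had lower ones, and CCNB1 (chr5:69167030-69167149, plus strand) differed little.
MKI67: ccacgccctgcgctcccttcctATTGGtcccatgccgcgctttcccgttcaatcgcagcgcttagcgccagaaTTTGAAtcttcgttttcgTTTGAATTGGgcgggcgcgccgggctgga
KIF11: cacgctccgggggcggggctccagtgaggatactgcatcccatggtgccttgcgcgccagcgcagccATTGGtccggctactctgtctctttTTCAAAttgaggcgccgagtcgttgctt
ESPL1: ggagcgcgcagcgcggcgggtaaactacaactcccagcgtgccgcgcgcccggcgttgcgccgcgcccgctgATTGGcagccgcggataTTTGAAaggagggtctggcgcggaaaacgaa
INCENP: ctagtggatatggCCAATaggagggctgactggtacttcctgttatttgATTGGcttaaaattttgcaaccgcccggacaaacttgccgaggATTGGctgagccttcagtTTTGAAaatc
CCNB1: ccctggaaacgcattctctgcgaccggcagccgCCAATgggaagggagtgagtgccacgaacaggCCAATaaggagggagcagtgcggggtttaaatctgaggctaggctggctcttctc

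In these windows MKI67 has CHR matches beginning 47 and 29 bases before the start, the second of which shares its last base with a CCAAT match. ESPL1 has 1 beginning 31 bases before the start, and KIF11 has 1 on the opposite strand beginning 28 bases before. INCENP has its CHR match 10 bases before the start and 3 CCAAT matches, and CCNB1 has 2 CCAAT matches and no CHR letters in this window. A match is a description of letters and not a measured site. Among the 43 genes with a promoter, the median log2 fold change was 0.38 in the 35 with a CHR match and -0.10 in the 8 without. It was 0.08 in the 34 with a CCAAT match and 0.48 in the 9 without, and 0.07 in the 11 with an E2F-like match and 0.31 in the 32 without. These medians were not corrected for the GC content of the transcripts. Across all members the fold change fell with that content, at a Spearman's rho of -0.68. Whether genes with and without a match differ was not tested.

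The libraries differed in depth and in base composition. The steps between low FPKM values gave an estimated 5350000 to 10600000 fragments in the DDX17_KO libraries and 12340000 to 14590000 in the controls. DDX17 itself measured 22.4, 7.64 and 19.1 FPKM in DDX17_KO (replicates 1, 2 and 3), against 45.7, 41.4 and 43.9 FPKM in the controls, with a two-sided exact permutation p of 0.1, the smallest that 3 against 3 libraries allow. Its log2 fold change of -1.48 came with limma adjusted p 0.282, and without DDX17_KO replicate 2 it was -1.04 (limma adjusted p 0.0334). Replicate 2 of both groups stood apart: across 15564 genes the deviation from the group mean correlated with transcript GC content at a Spearman's rho of 0.54 in DDX17_KO replicate 2 and 0.591 in control replicate 2, and at -0.324 to -0.54 in the other libraries. Genes within a library are not independent, so these values are a description. Of 21 hepatocyte and hepatoma markers, 1 had a mean of at least 0.5 FPKM, CPS1 of the urea cycle, at 293 to 476 FPKM in DDX17_KO and 130 to 301 FPKM in controls. ALB and AFP, the genes of albumin and alpha-fetoprotein, were listed at 0 in each DDX17_KO library and reached at most 0.365 and 0.0665 FPKM in controls. Among the 21 markers, the liver origin on the label thus shows in CPS1 at most. Of 5 epithelial markers, the keratins KRT18 and KRT8 averaged 188 and 121 FPKM in DDX17_KO and 207 and 103 FPKM in controls. KRT19 and EPCAM reached at most 0.044 and 0.0437 FPKM in DDX17_KO, against 0.218 to 0.337 and 0.114 to 0.128 FPKM in controls. CDH1 reached at most 0.116 FPKM in DDX17_KO and 0.104 FPKM in controls. Of 10 fibroblast and mesenchymal markers, 7 had a mean of at least 0.5 FPKM, and the list summed to 168 to 196 FPKM in DDX17_KO and 157 to 179 FPKM in controls. Red cell markers, 10 of 10 above 0 in at least 1 library, summed to 0.0211 to 0.673 FPKM in DDX17_KO and 54.6 to 69.9 FPKM in controls, nearly all of it globin RNA. HBB was listed at 0 in the DDX17_KO libraries. The genes HBB, HBA1 and HBA2 were among the 6 called lower over all tested genes (limma adjusted p 8.15e-05, 0.00121 and 0.000112). The source of the globin RNA is not known, and the part of this difference between the groups in the results on mitotic genes was not tested.

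No mitotic gene passed the test, and the genes did not all lean the same way. Log2 fold changes were above 0 for 9 of 10 spindle motors and assembly factors and 6 of 6 cytokinesis genes. They were also above 0 for 5 of 7 chromosome structure genes, and MKI67, KIF14 and KIF11 led. Transcripts of these roles had a median GC content of 38.4%, 41.2% and 39.1%. Among all tested genes 47.5% were above 0, with 80.7% of those under 40% GC and 69.2% of those at 40% to 45%. The role medians were 0.39, 0.50 and 0.60, and 0.16, 0.32 and 0.31 after the GC and length correction. The core cyclins and CDK1 were near the control level, and ESPL1, INCENP and CENPA had lower values in each DDX17_KO library than in any control library. Of the 50 genes, 0 were called higher and 0 lower by limma at an adjusted p of 0.05, where 0.0384% of all tested genes were called. The smallest limma adjusted p among the 50 was 0.3, that of ESPL1. At an unadjusted p under 0.05 there were 3 higher and 3 lower, where the shares of all tested genes are 6.31% and 7.19%. The higher ones were MKI67, KIF11 and CENPF, and the lower ones ESPL1, INCENP and CENPA.

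Of the 50 genes, 32 had a log2 fold change above 0, where 47.5% of all tested genes did. Their median was 0.22, against -0.03 over all tested genes, and their range ran from -0.78 to 1.44. The median of the 50 was 0.09 without DDX17_KO replicate 1 and also without control replicate 2. Non-overlapping groups were found in 6 of the 50, with 1 higher in DDX17_KO, CCNB2, and 5 lower, ESPL1, INCENP, CENPA, NCAPD2 and NCAPH, where the shares of all tested genes are 8.09% higher and 12.6% lower. The 50 summed to 1297, 971 and 1246 FPKM in DDX17_KO replicates 1, 2 and 3, against 1089, 917 and 1038 FPKM in control replicates 1, 2 and 3. The sum was lowest in replicate 2 of each group. DDX17_KO replicate 2 was the lowest of its group in 32 of the 50 genes and control replicate 2 the lowest of its group in 31. Within the groups the median SD was 0.31 on the log2 scale for the 50 genes and 0.28 for all tested genes.

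**Figure D1:**
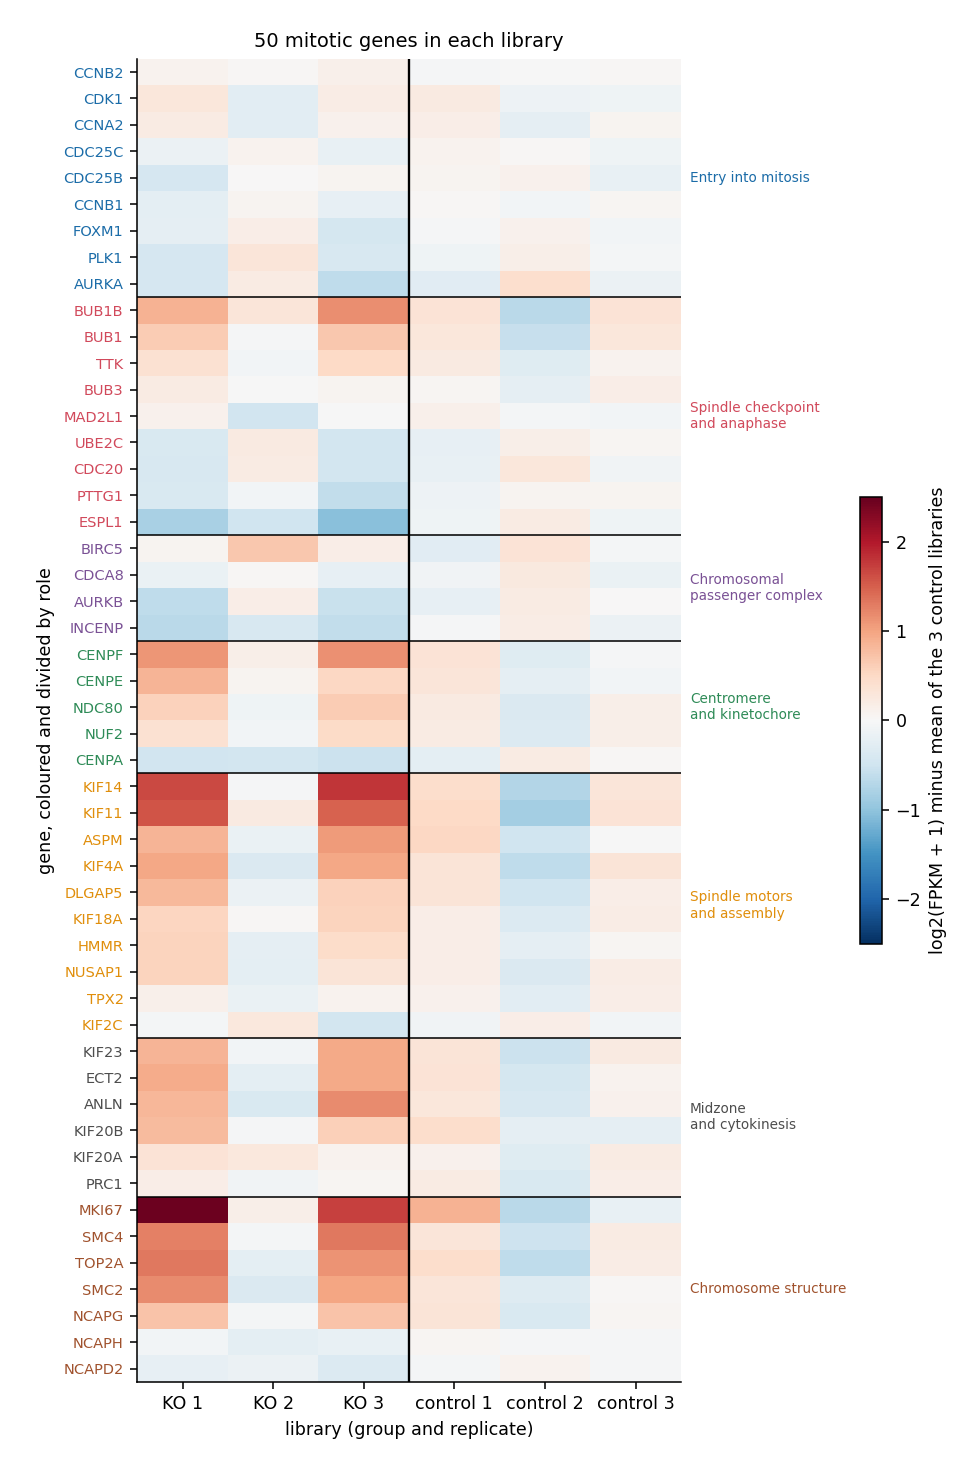
Level of each of the 50 mitotic genes in each library, as log2(FPKM + 1) minus the mean of the 3 control libraries, divided by role and DDX17_KO libraries left of control libraries. Genes such as MKI67, KIF14, KIF11 and TOP2A are red in DDX17_KO replicates 1 and 3 and pale in DDX17_KO replicate 2, while control replicate 2 is blue in the same genes.

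The libraries numbered 2 deviated together from their group means, at a correlation of 0.546, so the groups were also compared within numbers. The pairing of numbers 1 and 3 is less clear. DDX17_KO replicate 3 correlated with control replicate 1 at 0.329 and with control replicate 3 at 0.214. The pairing was taken from these same data and not from the labels, which limits what the pair counts and block p-values can show. In 24 of the 50 genes the DDX17_KO library was higher than the control library of the same number in 3 of 3 pairs, and in 10 it was lower in 3 of 3 pairs. Among all tested genes those shares are 26.2% and 27.5%. In a replicate block fit, 20 genes were higher and 3 lower at an unadjusted p under 0.05 by limma, where 15.1% of all tested genes were higher and 13.4% lower. The median transcript GC content was 42.9% for the 50 genes and 48% for all tested genes. With a GC and length correction before the block, 11 were higher and 3 lower, and the share of all tested genes in that fit was not taken. After adjustment 0 of the 50 passed with the block alone, and the smallest limma adjusted p was 0.0654, shared by ESPL1 and KIF11, where 0.0256% of all tested genes were called.

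**Figure D2:**
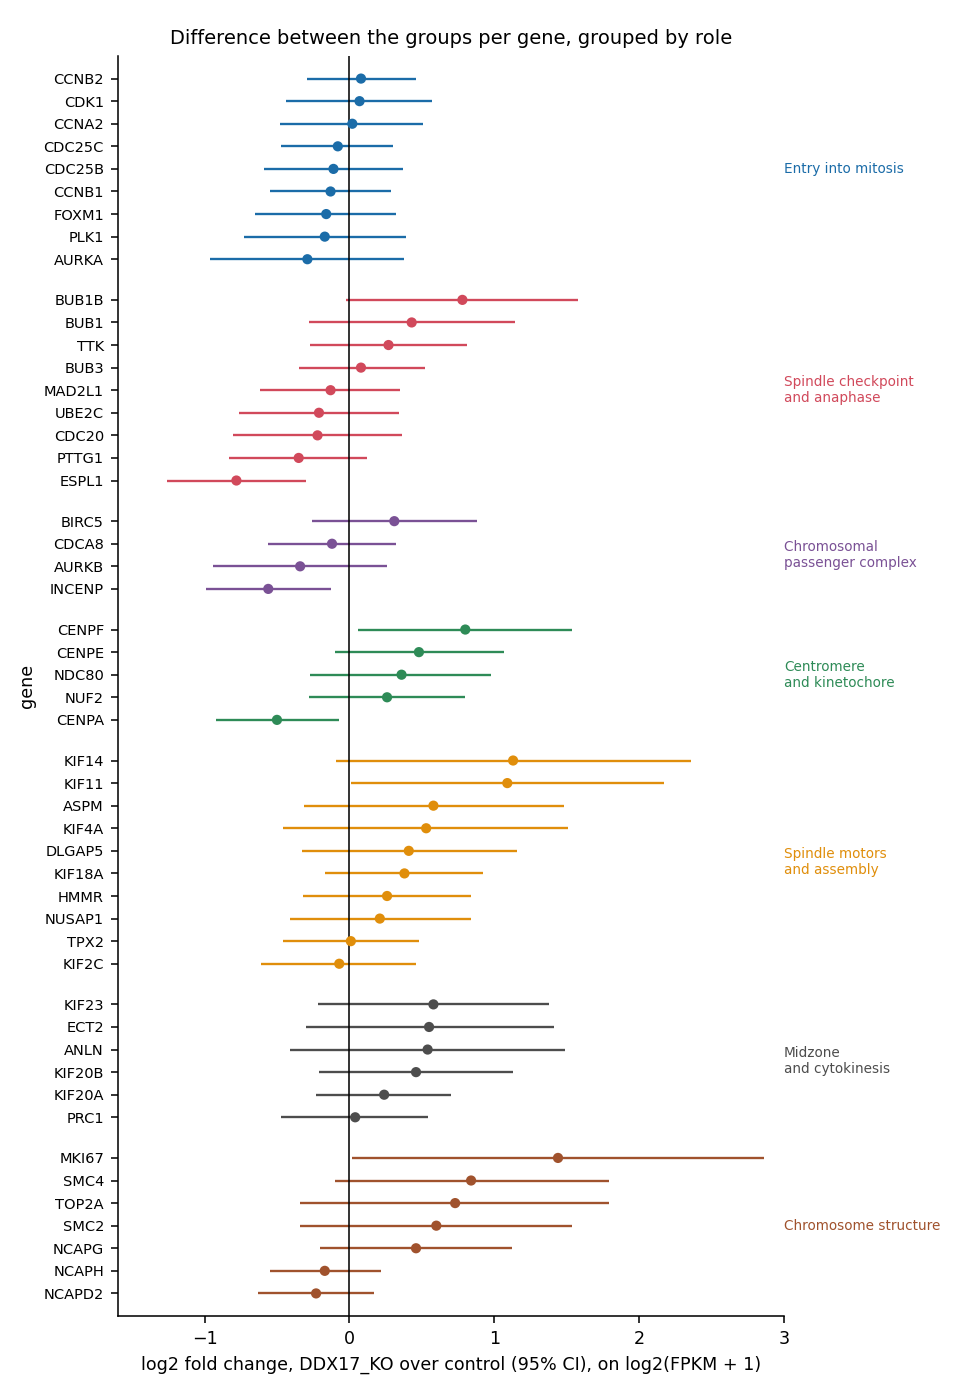
Log2 fold change of DDX17_KO over control per gene with its 95% confidence interval from limma, grouped by role. The intervals of MKI67, KIF11 and CENPF lie above 0 and those of ESPL1, INCENP and CENPA below 0, and none of these genes passed the adjusted threshold.

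The 9 genes for entry into mitosis had the narrowest range of differences. Their log2 fold changes ran from -0.29 to 0.08, with a median of -0.11, 3 above 0 and 6 below, and 0 were called. CCNB1, the cyclin B1 gene and the most abundant of them, measured 39.3, 49.1 and 40.6 FPKM in DDX17_KO (replicates 1, 2 and 3), against 47.6, 44.6 and 48.5 FPKM in controls. The groups overlapped, and DDX17_KO replicate 2 was the highest of the 6 libraries. For CCNB1 the log2 fold change was -0.13 (95% interval -0.55 to 0.29, limma adjusted p 0.718).

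CCNB2, which encodes cyclin B2, had 21.8, 20.8 and 22.4 FPKM in DDX17_KO, against 20, 20.3 and 20.8 FPKM in controls. Each DDX17_KO library was above each control, the lowest of the first by less than the rounding shown. The difference was small, with a log2 fold change of 0.08 (95% interval -0.29 to 0.46, limma adjusted p 0.8). AURKA, the kinase that matures centrosomes, had 18.3, 28.7 and 15.6 FPKM in DDX17_KO, against 20.3, 33.5 and 22.5 FPKM in controls. Replicate 2 was the highest library of both groups, and AURKA was lower in DDX17_KO in each numbered pair. Its log2 fold change of -0.29 ± 0.29 (SE) came with limma adjusted p 0.61.

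CDK1, the kinase subunit itself, averaged 16.1 ± 3.30 FPKM in DDX17_KO and 15.3 ± 2.33 FPKM in controls (SD, n = 3 each). CCNA2, the cyclin A2 gene, averaged 36 ± 6.13 FPKM in DDX17_KO and 35.4 ± 4.97 FPKM in controls. PLK1, a kinase that acts on centrosomes and kinetochores, averaged 24.3 ± 7.69 FPKM in DDX17_KO and 26.8 ± 2.61 FPKM in controls. FOXM1, the transcription factor that activates many of these genes, averaged 13.1 ± 3.05 FPKM in DDX17_KO and 14.6 ± 0.991 FPKM in controls, with a log2 fold change of -0.16 (limma adjusted p 0.684). The phosphatase genes CDC25B and CDC25C, whose products switch CDK1 on, had log2 fold changes of -0.11 and -0.08. For each of these genes the difference was smaller than the SD of at least 1 group, and the signs of CDK1, CCNA2, CDC25B, PLK1 and FOXM1 turned under the GC and length correction.

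The checkpoint kinase family and the anaphase genes leaned in opposite directions. BUB1, BUB1B and TTK had log2 fold changes above 0, and the anaphase genes CDC20, UBE2C, PTTG1 and ESPL1 had values below 0. Their transcripts had 42.5%, 43.2% and 40.8% GC, against 57.9%, 50%, 49.3% and 57%. After the GC and length correction BUB1, BUB1B and TTK were at 0.31, 0.68 and 0.10. CDC20, UBE2C, PTTG1 and ESPL1 were then at 0.08, -0.13, -0.27 and -0.61. Of the 9 genes of this role, 0 were called. BUB1B, which encodes the checkpoint protein BUBR1, measured 15.4, 10.1 and 19.1 FPKM in DDX17_KO (replicates 1, 2 and 3), against 10.3, 4.6 and 10.4 FPKM in controls. DDX17_KO replicate 2 lay just under 2 of the controls, and each numbered pair was higher in DDX17_KO. In BUB1B the log2 fold change was 0.78 ± 0.34 (SE, limma adjusted p 0.37), and it was 0.44 without control replicate 2, the lowest library.

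ESPL1 (ENSG00000135476, hg38 chromosome 12, 53268299 to 53293643) encodes separase, the protease that cuts cohesin at anaphase. It measured 5.97, 7.62 and 4.95 FPKM in DDX17_KO (replicates 1, 2 and 3), against 10.4, 13.1 and 10.3 FPKM in controls. Each DDX17_KO library was below each control library. The means were 6.18 ± 1.34 FPKM in DDX17_KO and 11.3 ± 1.6 FPKM in controls (SD, n = 3 each), and the log2 fold change of -0.78 had an interval at 95% confidence of -1.26 to -0.30. The limma adjusted p was 0.3 with all libraries, 0.0486 without DDX17_KO replicate 2 and 0.0396 without replicate 2 of either group. Over the 6 omissions of 1 library the log2 fold change of ESPL1 ran from -0.92 to -0.66. PTTG1, the gene of securin, the inhibitor bound to separase, averaged 31.6 ± 6.33 FPKM in DDX17_KO and 40.1 ± 2.97 FPKM in controls, with a log2 fold change of -0.35 (limma adjusted p 0.428).

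CDC20, the activator of the anaphase-promoting complex and the most abundant gene of this role, had 52.1, 79.8 and 49.8 FPKM in DDX17_KO, against 60.4, 84.3 and 64.7 FPKM in controls. Replicate 2 was the highest library in both groups, and the groups overlapped. For CDC20 the log2 fold change was -0.22 ± 0.25 (SE), and the sign turned, to 0.08, once GC content and length were corrected for. UBE2C, the ubiquitin-conjugating enzyme that works with that complex, had a log2 fold change of -0.21. BUB1 and TTK had 0.43 and 0.27, with limma adjusted p-values of 0.495 and 0.558, and the remaining checkpoint genes BUB3 and MAD2L1 had 0.08 and -0.13.

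The chromosomal passenger complex joins the kinase Aurora B to INCENP, survivin and borealin, and its 4 subunit genes split. INCENP, its scaffold (ENSG00000149503, chromosome 11, 62123973 to 62153163), measured 12.7, 15.7 and 13.4 FPKM in DDX17_KO (replicates 1, 2 and 3), against 20.5, 23.8 and 18.8 FPKM in controls. The groups did not overlap. The log2 fold change of INCENP was -0.56 (95% interval -0.99 to -0.13, limma adjusted p 0.353). Without replicate 2 of either group it was -0.55 (limma adjusted p 0.0476), and after the GC and length correction it was -0.26 (limma adjusted p 0.321). BIRC5, the survivin gene, leaned the other way, with 5.67, 9.16 and 6.13 FPKM in DDX17_KO, against 4.18, 7.05 and 5.11 FPKM in controls. Each numbered pair was higher in DDX17_KO, the groups overlapped, and the log2 fold change was 0.31 (limma adjusted p 0.53). It was 0.12 without DDX17_KO replicate 2 and 0.48 without control replicate 2. AURKB had a log2 fold change of -0.34 and CDCA8, the borealin gene, -0.12. Both were lower in DDX17_KO in 3 of 3 pairs, where 27.5% of all tested genes were. After the GC and length correction AURKB was at -0.10, CDCA8 at 0.08 and BIRC5 at 0.52.

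Among the centromere and kinetochore genes, CENPF was the most abundant and had the highest fold change, and CENPA the lowest. CENPF (ENSG00000117724, chromosome 1, 214603195 to 214664588), a large kinetochore protein that builds up in G2, measured 44.4, 22.3 and 45.8 FPKM in DDX17_KO (replicates 1, 2 and 3), against 25.6, 16 and 19.8 FPKM in controls. DDX17_KO replicate 2 lay among the controls and the other 2 DDX17_KO libraries lay above them. The means were 37.5 ± 13.2 FPKM in DDX17_KO and 20.5 ± 4.86 FPKM in controls (SD, n = 3 each). That gave a log2 fold change of 0.80 (95% interval 0.06 to 1.54, limma adjusted p 0.369). It was 1.13 (limma adjusted p 0.0483) without DDX17_KO replicate 2, and 0.42 (limma adjusted p 0.236) after the GC and length correction.

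CENPA, the histone H3 variant that marks the centromere (ENSG00000115163, chromosome 2, 26764289 to 26801067), had 4.1, 4.16 and 3.89 FPKM in DDX17_KO, against 4.99, 7.27 and 6.32 FPKM in controls. The DDX17_KO libraries lay close together and below all controls. For CENPA the log2 fold change was -0.50 ± 0.18 (SE, limma adjusted p 0.368), and the GC and length correction left -0.43. NDC80 and NUF2, partners in the complex that grips microtubules, averaged 13.5 ± 3.75 and 6.5 ± 1.44 FPKM in DDX17_KO and 10.2 ± 2.26 and 5.26 ± 1.23 FPKM in controls. Their log2 fold changes were 0.36 ± 0.27 and 0.26 ± 0.23 (SE). CENPE, a kinetochore kinesin, had a log2 fold change of 0.48 (limma adjusted p 0.398).

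Spindle motors and assembly factors were above 0 in 9 of 10 genes, with 0 called. Their median log2 fold change was 0.39, and 0.16 after the GC and length correction. TPX2, the activator of Aurora A and the most abundant of the 50 genes, measured 110, 89.1 and 106 FPKM in DDX17_KO (replicates 1, 2 and 3), against 108, 83.4 and 112 FPKM in controls. The groups overlapped fully, and the log2 fold change was 0.01 (95% interval -0.46 to 0.48). KIF2C, a kinesin that takes microtubules apart, had 29.6, 37 and 22 FPKM in DDX17_KO, against 28.5, 34.4 and 28.8 FPKM in controls, and a log2 fold change of -0.07 whose sign turned, to 0.03, with quantile normalization. Both differences were smaller than the spread between libraries.

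KIF14 (ENSG00000118193, chromosome 1, 200551497 to 200620734), a kinesin that also acts in cytokinesis, measured 11.7, 2.95 and 13 FPKM in DDX17_KO (replicates 1, 2 and 3), against 4.49, 1.44 and 3.99 FPKM in controls. DDX17_KO replicate 2 lay below 2 controls, while replicates 1 and 3 lay above every control. In KIF14 the log2 fold change was 1.13 (95% interval -0.09 to 2.36, limma adjusted p 0.373). Without DDX17_KO replicate 2 it was 1.72 (limma adjusted p 0.0528), and without replicate 2 of either group it was 1.35 (limma adjusted p 0.0349). Without control replicate 2 it was 0.77.

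KIF11 (ENSG00000138160, chromosome 10, 92593286 to 92655395), the motor Eg5 that pushes spindle poles apart, had 41.5, 15.9 and 39.1 FPKM in DDX17_KO, against 19.3, 7.01 and 17.3 FPKM in controls. The differences within the numbered pairs were alike, at 1.07, 1.07 and 1.13 on the log2 scale. For KIF11 the log2 fold change was 1.09 (limma adjusted p 0.369), and in the replicate block fit the limma adjusted p was 0.0654. It was 1.52 without DDX17_KO replicate 2 and 0.67 without control replicate 2. ASPM, a spindle pole protein, averaged 36 ± 14.6 FPKM in DDX17_KO and 23.2 ± 8.46 FPKM in controls, and KIF4A, a chromosome-bound kinesin, 21 ± 9.50 FPKM in DDX17_KO and 13.7 ± 4.88 FPKM in controls (SD, n = 3 each). On the log2 scale the difference of ASPM was 0.58, and 0.14 after the GC and length correction, while that of KIF4A was 0.53, and 0.52 after it. KIF4A was at 0.96 without DDX17_KO replicate 2 and at 0.21 without control replicate 2. DLGAP5, KIF18A, HMMR and NUSAP1 had log2 fold changes of 0.41, 0.38, 0.26 and 0.21.

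**Figure D3:**
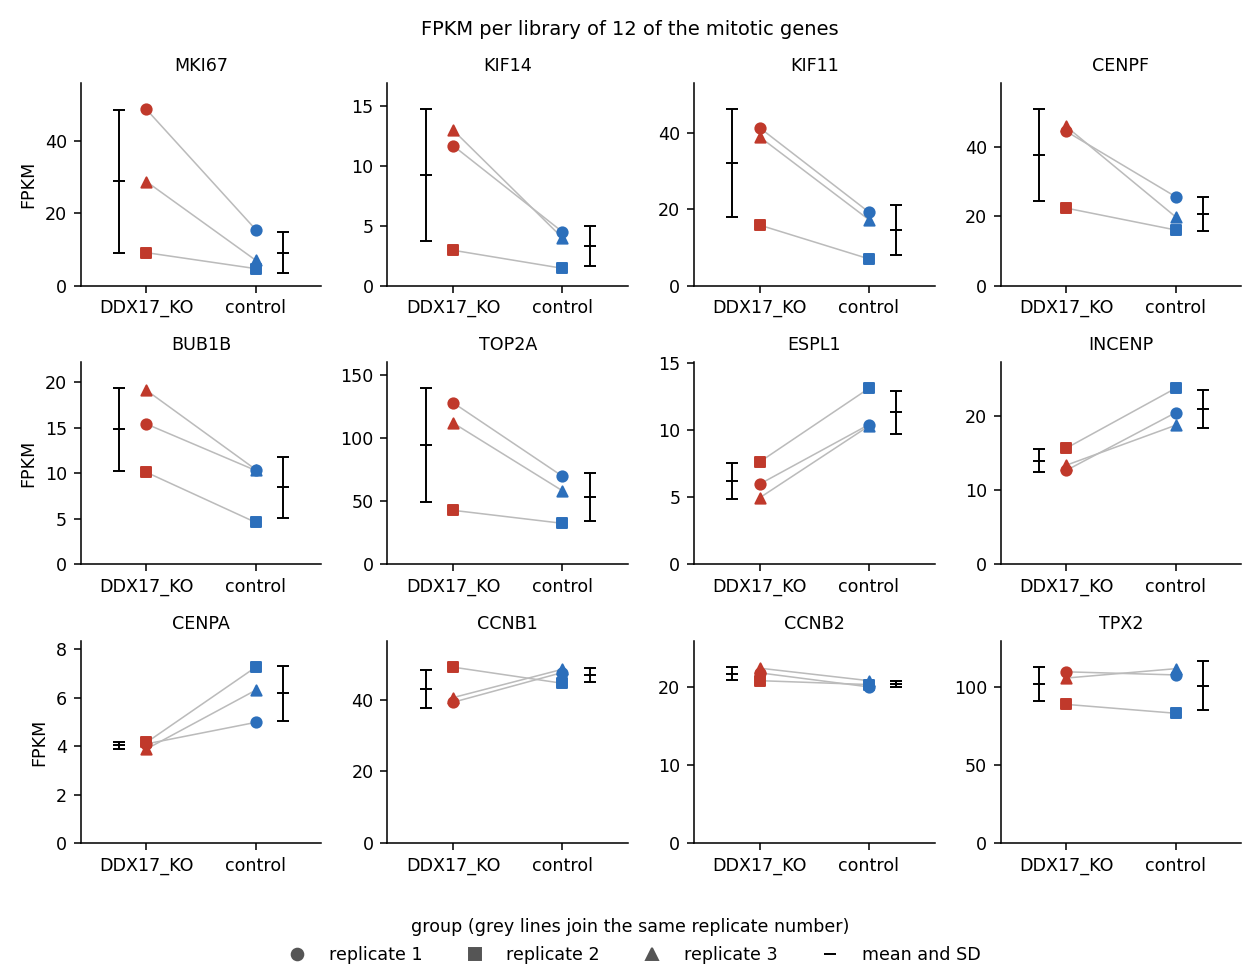
FPKM of 12 of the mitotic genes in each library, DDX17_KO left of control, with grey lines joining libraries of the same number and bars giving the mean and SD of each group (n = 3). In MKI67, KIF14, KIF11 and TOP2A the DDX17_KO points of replicates 1 and 3 lie well above that of replicate 2, and in ESPL1, INCENP and CENPA each DDX17_KO point lies below each control point.

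The midzone and cytokinesis genes were above 0 in 6 of 6, with 0 called. Their median log2 fold change was 0.50, and 0.32 after the GC and length correction. ANLN, the anillin gene and the most abundant of them, measured 66.4, 28 and 84.5 FPKM in DDX17_KO (replicates 1, 2 and 3), against 45.4, 27.7 and 40 FPKM in controls. DDX17_KO replicates 1 and 3 lay above every control and replicate 2 near the lowest. For ANLN the log2 fold change was 0.54 ± 0.41 (SE, limma adjusted p 0.513), and it was 1.00 (limma adjusted p 0.0614) without DDX17_KO replicate 2 and 0.22 without DDX17_KO replicate 3.

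KIF23, a subunit of centralspindlin, had 13.6, 6.68 and 14.6 FPKM in DDX17_KO, against 9.07, 4.55 and 8.37 FPKM in controls. Each numbered pair was higher in DDX17_KO, and DDX17_KO replicate 2 lay below 2 controls. In KIF23 the log2 fold change was 0.58 (limma adjusted p 0.433), and without replicate 2 of either group it was 0.64 (limma adjusted p 0.0431). It was 0.91 without DDX17_KO replicate 2, 0.39 without DDX17_KO replicate 3 and 0.31 without control replicate 2. After the GC and length correction the log2 fold change of KIF23 was 0.45 (limma adjusted p 0.38). PRC1, which bundles midzone microtubules, had 21.2, 17.6 and 19.4 FPKM in DDX17_KO, against 21.9, 14.2 and 21.3 FPKM in controls, a log2 fold change of 0.04. ECT2, the activator of RhoA at the division furrow, had 0.55 (limma adjusted p 0.468), and 0.73 (limma adjusted p 0.0447) without replicate 2 of either group, but 0.33 without control replicate 2 and 0.32 after the GC and length correction. KIF20A and KIF20B had 0.24 and 0.46.

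The chromosome structure genes had the highest median of the 7 roles, 0.60, and the widest spread. Their median SD within groups was 0.63 on the log2 scale. After the GC and length correction their median was 0.31, and that of the cytokinesis genes was 0.32. MKI67 (ENSG00000148773, chromosome 10, 128096659 to 128126385), the gene of the Ki-67 protein used to count dividing cells, measured 48.8, 9.11 and 28.8 FPKM in DDX17_KO (replicates 1, 2 and 3), against 15.5, 4.68 and 6.99 FPKM in controls. The groups overlapped, since DDX17_KO replicate 2 was under control replicate 1. The means were 28.9 ± 19.8 FPKM in DDX17_KO and 9.07 ± 5.72 FPKM in controls (SD, n = 3 each). That gave a log2 fold change of 1.44 (95% interval 0.02 to 2.86, limma adjusted p 0.369). It was 2.08 (limma adjusted p 0.0562) without DDX17_KO replicate 2, and 1.25 (limma adjusted p 0.315) after the GC and length correction. Without DDX17_KO replicate 1 it was 0.93.

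TOP2A, which encodes the topoisomerase that untangles sister chromatids (ENSG00000131747, chromosome 17, 40388516 to 40417950), had 128, 42.8 and 112 FPKM in DDX17_KO, against 69.8, 32.5 and 58.3 FPKM in controls. DDX17_KO replicate 2 again lay among the controls. For TOP2A the log2 fold change was 0.73 ± 0.46 (SE, limma adjusted p 0.451). Without replicate 2 of either group it was 0.90 (limma adjusted p 0.0415), where 5.51% of all tested genes were called higher. The log2 fold change of TOP2A was 1.21 without DDX17_KO replicate 2 and 0.41 without control replicate 2. After the GC and length correction it was 0.46 (limma adjusted p 0.437).

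The condensin I genes, whose products form a single ring complex that compacts chromosomes, did not lean together. SMC2 and SMC4, the arms of the ring, averaged 13.8 ± 6.94 and 13.3 ± 6.26 FPKM in DDX17_KO and 7.96 ± 1.90 and 6.54 ± 2.12 FPKM in controls (SD, n = 3 each). Their log2 fold changes were 0.60 and 0.84, with limma adjusted p-values of 0.473 and 0.382, and without replicate 2 of either group 0.92 and 1.03, with 0.0431 and 0.0349. SMC2 was at 0.31 without DDX17_KO replicate 1 and at 0.31 after the GC and length correction, and SMC4 at 0.58 without control replicate 2 and at 0.57 after that correction. NCAPG had 0.46. NCAPD2 had 43.7, 45 and 39.4 FPKM in DDX17_KO, against 48.2, 53.3 and 49.2 FPKM in controls, and NCAPH averaged 13.4 ± 0.945 FPKM in DDX17_KO and 15.1 ± 0.567 FPKM in controls. In both the groups did not overlap, and their log2 fold changes were -0.23 and -0.17 with limma adjusted p-values of 0.506 and 0.61.

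The direction of a gene went with the base composition of its transcript. Of 16 members with a transcript GC content under 40%, 15 had a log2 fold change above 0, with a median of 0.47. Of 12 members at 50% and over, 1 was above 0, BIRC5, with a median of -0.19 in the bin. All tested genes showed the same tilt, with 80.7% above 0 and a median of 0.32 under 40% GC, and 24.3% above 0 and a median of -0.21 at 50% and over. Across the 50 members the Spearman's rho of the fold change with GC content was -0.68, and across all 15564 tested genes with a known GC content it was -0.517. The fold change also rose with transcript length among the 50 members, at a Spearman's rho of 0.594. Across the 15564 genes the rho with length was 0.00584. These are descriptions across genes that share the same 6 libraries.

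The GC and length correction removes from each library the part of its deviation that a smooth curve of both explains, and it also takes out any group difference that runs with them. It moved the median of the 50 genes to 0.11, against 0.22 before it, and left 35 above 0 and 15 below. The members under 40% GC then had a median of 0.20 and those at 50% and over 0.08. Across the 50 genes the Spearman's rho of the fold change with GC content was -0.33 after it. Of the genes that differed most, MKI67 was then at 1.25, KIF11 at 0.85, KIF14 at 0.81 and ESPL1 at -0.61, while CENPE was at 0.11, against 0.48 before it, and ASPM and INCENP at 0.14 and -0.26, against 0.58 and -0.56. MKI67 lies off the tilt with GC content, since its transcript has 48.3% GC, but at 12678 bases that transcript is the longest of the 50. The curve was fitted over all tested genes with a known GC content, so it need not remove a relation with length that only the members show. The parts of base composition and transcript length in the differences between the groups were not tested beyond this correction.

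**Figure D4:**
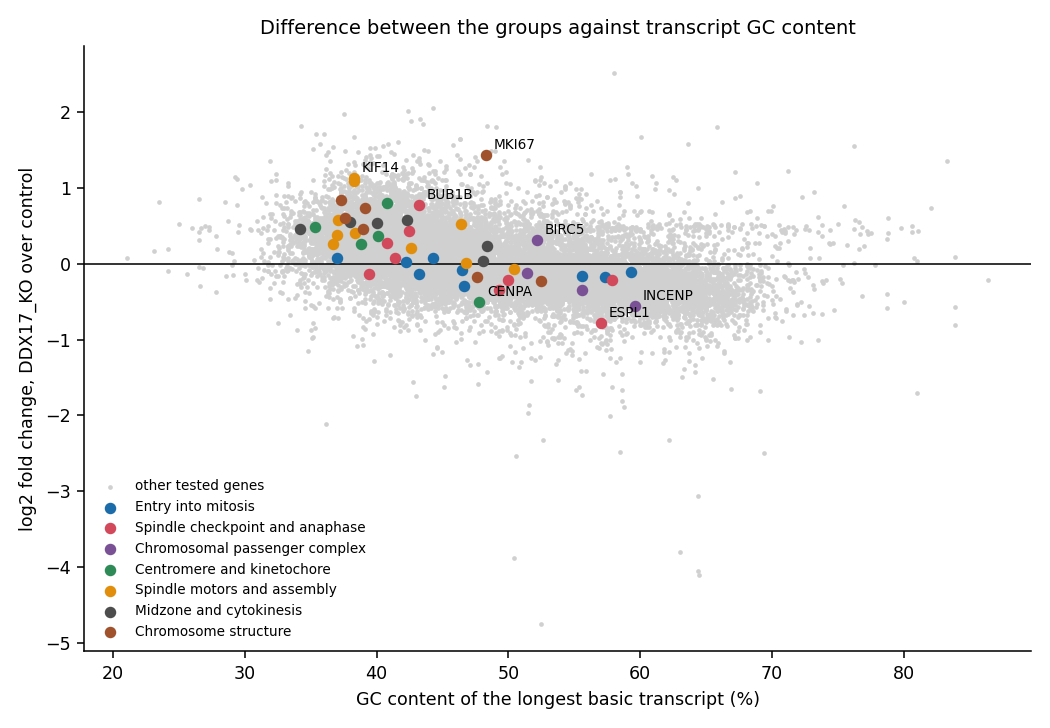
Log2 fold change of DDX17_KO over control against the GC content of the longest basic transcript, with the 50 mitotic genes coloured by role and the other tested genes in grey. The mitotic genes follow the downward tilt of the grey cloud. Among the labelled genes MKI67, KIF14, BUB1B and BIRC5 lie above the tilt, and ESPL1, CENPA and INCENP below it.

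Whether any of the 50 genes passed the test depended on the libraries numbered 2. Without DDX17_KO replicate 2, CENPF was called higher and ESPL1 lower by limma, where 1.95% of all tested genes were higher and 1.72% lower. Groups were apart in 40 of the 50 without DDX17_KO replicate 2, where 60.8% of all tested genes were, and in 11 without control replicate 1, where 29.9% were. Without replicate 2 of either group, 9 were called higher, where 5.51% of all tested genes were, and 2 lower, where 3.3% were. The 9 were CENPF, KIF4A, KIF11, KIF14, KIF23, ECT2, TOP2A, SMC2 and SMC4, and the 2 were ESPL1 and INCENP. With both corrections together, GC and length without DDX17_KO replicate 2, 0 were called and the smallest limma adjusted p was 0.0555. DDX17_KO replicate 2, which lay among the controls in many of these genes, had the lowest DDX17 level of the 6 libraries. The part of its base composition and depth in these calls was not tested beyond the correction.

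**Figure D5:**
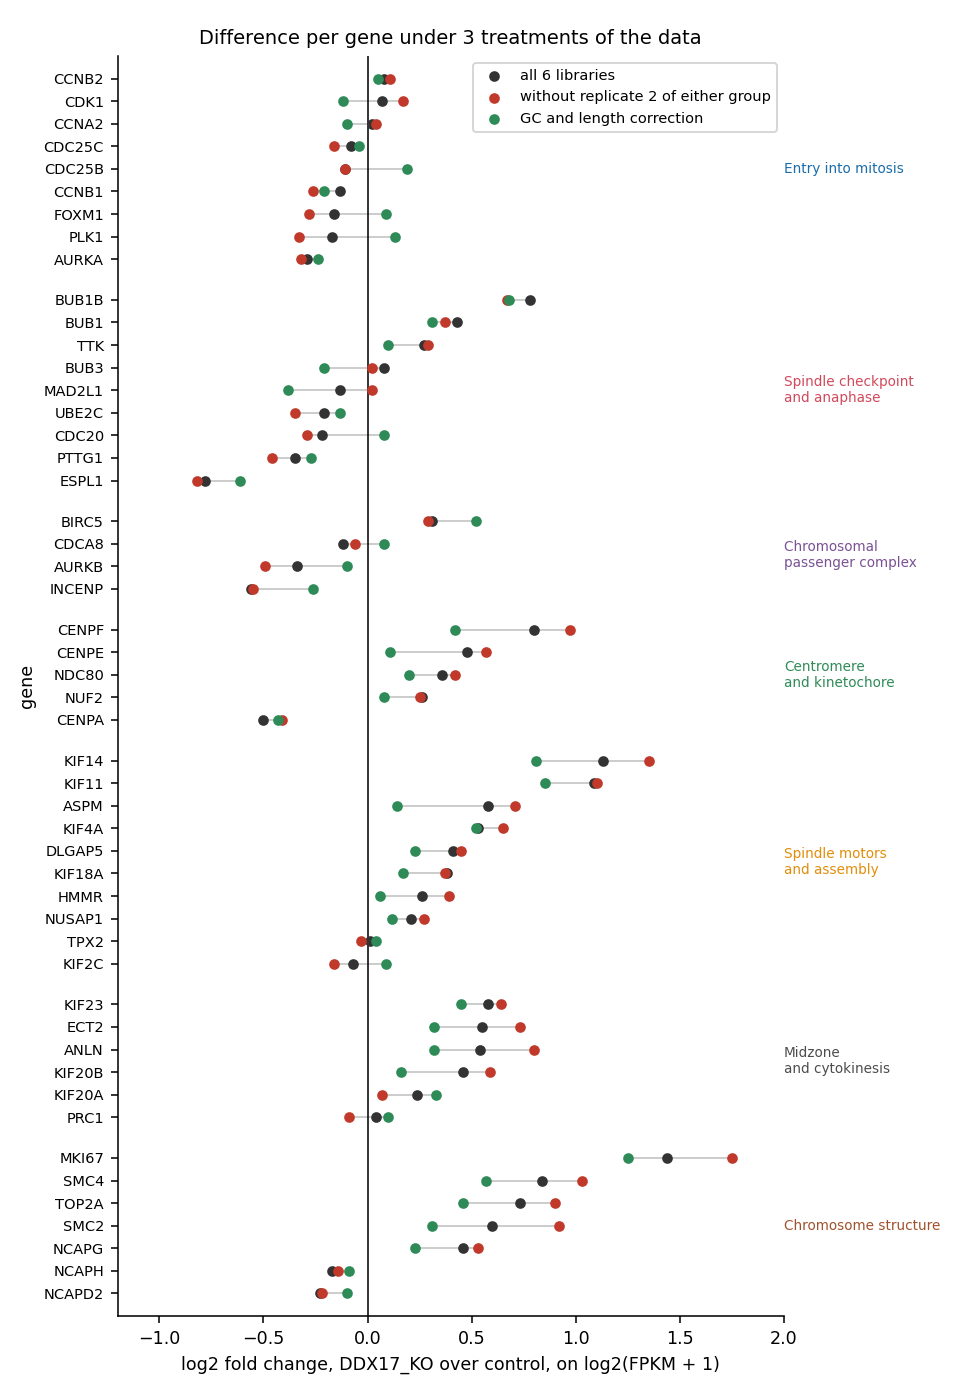
Log2 fold change of DDX17_KO over control for each gene with all libraries, without replicate 2 of either group, and after the GC and length correction. MKI67, KIF14 and KIF11 stay above 0 and ESPL1, INCENP and CENPA below 0 in all 3, while CDK1, CCNA2, BUB3, CDC25B, PLK1, FOXM1, CDC20, CDCA8 and KIF2C change sign under the correction and MAD2L1, TPX2 and PRC1 without the libraries numbered 2.

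Further genes of the same processes differed in both directions. Of 60 further mitotic genes, 58 were tested, 0 were called by limma, and 26 lay above 0 and 32 below. Their median was -0.04 on the log2 scale and their range -0.65 to 1.08. KPNA2, an importin that binds TPX2, averaged 94.1 ± 9.94 FPKM in DDX17_KO and 89.2 ± 18.2 FPKM in controls, and CKS2, a CDK subunit, 54.5 ± 23.0 FPKM in DDX17_KO and 70.2 ± 7.03 FPKM in controls (SD, n = 3 each). Of 24 regulators of mitotic genes, 23 were tested and 0 called, with a median of -0.03. MYBL2, the B-MYB gene, averaged 86 ± 20.8 FPKM in DDX17_KO and 113 ± 16.9 FPKM in controls, with a log2 fold change of -0.41 (limma adjusted p 0.423). TFDP1, the E2F partner, averaged 24.3 ± 6.09 FPKM in DDX17_KO and 31.2 ± 9.67 FPKM in controls. Of 42 genes of G1/S and DNA replication, 0 were called, and 35 lay below 0, where 8197 of the 15620 tested genes did. The median of the 42 genes was -0.29, and -0.17 after the GC and length correction. RRM1 and PCNA, their most abundant members, had log2 fold changes of 0.19 and -0.24, with limma adjusted p-values of 0.685 and 0.487. The difference between these lists and the 50 genes was not tested.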

How the data were processed

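Total RNA of MHCC97H cells was measured in 6 libraries, grouped by their labels. The single table the authors deposited holds FPKM per gene and library. Of tools, the submitters' processing notes list HISAT2, StringTie, edgeR and CASAVA 1.8, with hg38 as the build. Which step each did is not stated there. The unit was inferred: FPKM times transcript length fell within 0.05 of whole fragments for 99.55% to 99.75% of values up to 20 fragments, which gave the depths. Lengths and GC content came from GENCODE release 29. The least covered of the 50 genes, CENPA, had about 32 fragments in its lowest library.

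The 15620 genes averaging 0.5 FPKM or more were tested as log2(FPKM + 1) in limma 3.58.1 (R 4.3.3, trend option, two-sided). P-values were adjusted by Benjamini-Hochberg over those genes, at a threshold of 0.05. Fold changes of weakly expressed genes are understated on this scale. The calculation was tested on simulated data with 200 changed genes. Its noise was drawn separately for each gene and library, so it cannot speak to the deviations that many genes of a library share. The members and lists were chosen with earlier results of these data known. From each role the text names the gene with the highest mean and those with the highest and lowest fold change. Other genes were named after their values were seen. From each other list it names the 2 genes with the highest mean.

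Deviations from the group means correlated at 0.3, 0.546 and 0.214 for libraries numbered 1, 2 and 3. This pairing comes from the data, not from the labels, and DDX17_KO replicate 3 also correlated with control replicate 1, at 0.329. Alternatives were a replicate block, a pseudocount of 0.1, no filter, a minimum mean of 2 FPKM, median-of-ratios and quantile scaling, no trend, a GC and length correction by splines with 4 degrees of freedom each, alone or with the block, each library left out, and both libraries numbered 2 left out. The correction without DDX17_KO replicate 2 was added after seeing the data. Tables and figures were made in Python 3.11.15 (pandas 2.3.3).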

Additional observations from a re-analysis of the deposited data

How the results depend on the processing

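Over all tested genes 6 were called, against 3 with no filter, 10 after the GC and length correction, 3 to 572 when 1 library was left out, 1376 without replicate 2 of either group and 251 with the correction and without DDX17_KO replicate 2. Among the 50 genes 0 were called, against 0 to 2 when 1 library was left out, the 2 without DDX17_KO replicate 2, and 11 without replicate 2 of either group. Groups did not overlap in 6 of the 50, in 6 to 40 when 1 library was left out, in 42 without replicate 2 of either group, where 66.4% of all tested genes did not overlap, and in 13 after the correction, where 23.7% did not. Other mitotic genes called were 0, with 0 to 1 when 1 library was left out, 9 without replicate 2 of either group and 1 with the correction and without DDX17_KO replicate 2. Regulators called were 0, and 2 without replicate 2 of either group. G1/S genes called were 0, with 0 to 2 when 1 library was left out and 9 without replicate 2 of either group. The log2 fold change of DDX17 was -1.48, ran from -1.76 to -1.04 when 1 library was left out, and was -1.08 without replicate 2 of either group and -1.2 with the correction and without DDX17_KO replicate 2, where it passed the threshold.

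Some signs turned. KIF2C was at 0.03 with quantile normalization and at 0.09 with the correction, with or without the block, and ran from -0.24 to 0.12 when 1 library was left out. CDC20 was at 0.08 with the correction, with or without the block, and at 0.01 with the correction and without DDX17_KO replicate 2. When 1 library was left out TPX2 ran from -0.12 to 0.10 and PRC1 from -0.15 to 0.14, and without replicate 2 of either group they were at -0.03 and -0.09. PLK1 and FOXM1, at -0.17 and -0.16, were at 0.13 and 0.09 with the correction. The cause was not tested. The replicate block left the count called among the 50 at 0 and moved the count over all genes to 4, against 6 without it. Median-of-ratios scaling put the median of all genes at 0.01, against -0.03. The median of the 50 ran from 0.09 to 0.28 when 1 library was left out. Depth was lowest in DDX17_KO replicate 2.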
